A study of Mus musculus with 9 samples.

Results

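The T cell antigen receptor complex and its coreceptors are encoded here by 10 genes: Cd3d, Cd3e, Cd3g and Cd247 of the CD3 module, the receptor constant genes Trac, Trbc1 and Trbc2, and the coreceptor genes Cd4, Cd8a and Cd8b1. They were chosen by name, with earlier results of these data known. All 10 were found among the 53380 rows of each deposited table, with each gene identifier mapped to its mouse symbol. RNA was sequenced from 9 libraries of 1 mouse T-ALL line (T cell acute lymphoblastic leukemia), 3 at each of 3 levels of a human MYC transgene. MYC on cells were mock treated, MYC intermediate cells received 20 pg/mL doxycycline and MYC off cells received 500 pg/mL doxycycline, and all were harvested after 48 h. All 3 groups were the same line, derived from tumors of EμSRα-tTA/tet-O-MYC mice on the FVB/N background, in which a transactivator under a lymphoid enhancer and promoter drives the transgene until doxycycline blocks it. The groups therefore differed in drug dose as well as in MYC, no untreated normal thymocytes were included, and the labels do not say whether the 3 libraries of a group were separate cultures.

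An alpha and a beta chain form the part of the receptor that binds antigen, and neither chain signals by itself. CD3 delta, epsilon and gamma and the zeta chain (Cd247) carry the cytoplasmic motifs that kinases phosphorylate, and the chains are held together from assembly onwards, so that a receptor lacking one of them is largely retained in the cell. CD4 binds MHC class II and CD8, a dimer of alpha and beta chains, binds MHC class I, and both bring the kinase LCK to the receptor. In the thymus the beta chain gene is rearranged first, alpha genes are rearranged at the stage when thymocytes carry both CD4 and CD8, and later cells keep 1 of the coreceptors.

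The transgene itself followed the doses. hMYC averaged 1260 ± 75.4 CPM (counts scaled to a common library total) with MYC on, 408 ± 23.01 at the intermediate dose, and 3.785 ± 0.454 with MYC off (SD, n = 3 in each), and endogenous Myc had 0 counts in all 9 libraries. Library totals were between 18705516 and 39678799 counts. Of 13 T cell markers outside the 10 genes, all were tested and 12 were called higher in MYC off than in MYC on (adjusted p under 0.01, edgeR). Among all genes tested, 27.5% were called higher. Lck, the kinase bound to the coreceptors, averaged 3542 CPM in MYC off and 1589 CPM in MYC on. The beta and alpha constant genes were expressed, the delta constant gene Trdc had 1 count in all, and the 4 gamma constant genes Tcrg-C1 to Tcrg-C4 had 0.

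The promoter windows of the 4 CD3 module genes are shown because these genes lie on 2 chromosomes and changed by different amounts. Each window runs from 250 bases before to 50 bases after the RefSeq start on GRCm38.p6, 5′ to 3′ on the gene's strand. Capitals mark CAGGTG or CAGCTG on either strand, forms of the CANNTG box that E proteins, transcription factors of thymocytes, recognize.
Cd3d (chr9:44981536-44981835, plus strand): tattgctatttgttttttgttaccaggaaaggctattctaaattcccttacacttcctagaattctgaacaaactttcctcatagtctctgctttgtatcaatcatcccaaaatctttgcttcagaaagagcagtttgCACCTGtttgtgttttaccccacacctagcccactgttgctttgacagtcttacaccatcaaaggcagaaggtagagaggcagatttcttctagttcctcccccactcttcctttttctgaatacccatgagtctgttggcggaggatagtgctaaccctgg
Cd3g (chr9:44980382-44980681, minus strand): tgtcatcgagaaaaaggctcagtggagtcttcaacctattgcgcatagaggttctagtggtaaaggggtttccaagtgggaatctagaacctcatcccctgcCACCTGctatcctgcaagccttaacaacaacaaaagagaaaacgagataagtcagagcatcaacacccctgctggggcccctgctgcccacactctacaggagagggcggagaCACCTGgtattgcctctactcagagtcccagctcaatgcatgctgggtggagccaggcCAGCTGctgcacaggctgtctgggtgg
Cd3e (chr9:45009562-45009861, minus strand): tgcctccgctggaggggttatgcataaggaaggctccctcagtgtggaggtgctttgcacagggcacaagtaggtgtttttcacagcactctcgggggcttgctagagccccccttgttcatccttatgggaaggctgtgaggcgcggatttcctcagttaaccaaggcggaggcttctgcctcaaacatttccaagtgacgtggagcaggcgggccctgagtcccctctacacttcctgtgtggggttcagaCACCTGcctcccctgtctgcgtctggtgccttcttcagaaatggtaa
Cd247 (chr1:165788431-165788730, plus strand): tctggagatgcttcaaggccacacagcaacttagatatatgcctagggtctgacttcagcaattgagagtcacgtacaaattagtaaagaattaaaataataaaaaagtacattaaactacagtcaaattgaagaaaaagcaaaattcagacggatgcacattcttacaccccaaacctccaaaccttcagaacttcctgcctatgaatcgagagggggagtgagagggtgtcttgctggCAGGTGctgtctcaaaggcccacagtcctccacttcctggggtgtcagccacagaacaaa
Cd3g and Cd3d are head to head on chromosome 9 with 1355 bases between their starts, Cd3e starts 27825 bases beyond Cd3d, and Cd247 is on chromosome 1. The RefSeq table held windows for 5 of the 10 genes, the fifth being Cd8a. CAGGTG was found in 4 of the 5 windows (Cd3d, Cd3g, Cd3e and Cd247) and in 20.2% of all 32851 windows of the same length. CAGCTG was found in the windows of Cd3g and Cd8a and in 16.3% of all windows. CACGTG, the box that MYC binds with MAX, was in none of the 5 windows and in 7.15% of all. TGTGGT, a motif bound by RUNX factors, was in none of the 5 windows and in 16.8% of all. AGATAA, a motif bound by zinc finger factors such as Gata3, was in the window of Cd3g and in 11.2% of all. These matches describe letters in short windows and say nothing of binding.

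All 10 genes, chosen with earlier results of these data known, were higher in MYC off than in MYC on. Each was called at an adjusted p under 0.01 by the quasi-likelihood test of edgeR, whereas 27.5% of the 14098 genes tested were called higher and 27.4% lower in this comparison. The median log2 fold change was 1.02 over the 10 genes and 0.03 over all genes tested. In MYC intermediate against MYC on, 9 of the 10 were called higher and none lower, against 17.4% of all genes higher and 17.2% lower, and the medians were 0.64 over the 10 genes and 0.01 over all. Together the 10 genes took 0.589 ± 0.015% of all counts with MYC on, 1.005 ± 0.083% at the intermediate dose and 1.26 ± 0.072% with MYC off. Trbc2 alone took 0.250%, 0.488% and 0.613% in the same order. In bulk RNA of this kind, fewer cells that express a gene and less RNA per cell cannot be told apart, and every level is relative to the library total.

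**Figure D1:**
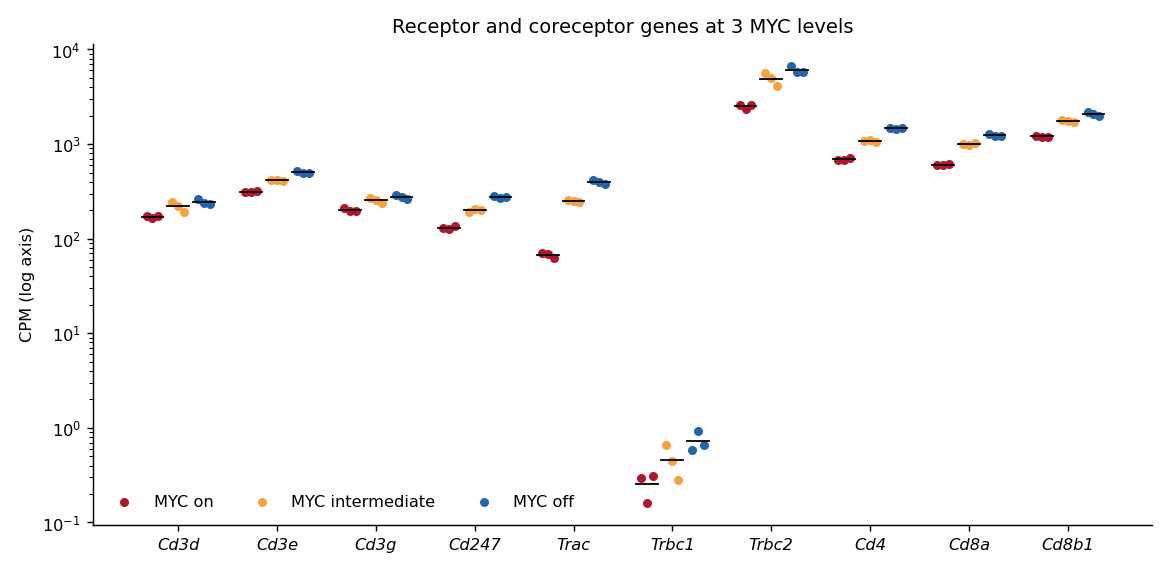
CPM of the 10 genes in each library (log axis), with points for the 3 libraries of MYC on, MYC intermediate and MYC off and a line at each mean. Trbc2 lies between 2365 and 6711 CPM, and Trbc1 lies below 1 CPM.

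The alpha constant gene moved furthest. Trac, which encodes the shared end of every alpha chain (chr14:54220521-54224206 on GRCm38, plus strand), had 70.4, 68.1 and 62.9 CPM with MYC on, 258, 252 and 243 at the intermediate dose, and 420.0, 401 and 375 with MYC off. The 3 groups were far apart, with no library near those of another dose. The log2 fold change of Trac was 2.54 ± 0.068 in MYC off against MYC on (SE, 95% interval 2.39 to 2.68, adjusted p = 1.03e-13), that is 5.81-fold. It was 1.91 ± 0.067 in MYC intermediate against MYC on and 0.62 ± 0.063 in MYC off against MYC intermediate. On the length-scaled TPM values of the authors, Trac was ranked 781 to 897 of all genes in MYC on libraries, 108 to 120 in MYC intermediate and 47 to 49 in MYC off.

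The beta chain was carried by Trbc2. Trbc2 (chr6:41546730-41548352, plus strand) had 2571, 2365 and 2571 CPM with MYC on, 5591, 4941 and 4102 at the intermediate dose, and 6711, 5848 and 5845 with MYC off. It was already the gene with the highest TPM of its library at full MYC, and it held that rank in all 9 libraries. MYC on libraries were all below the others. Within MYC intermediate the 3 libraries were spread more widely than elsewhere, with a coefficient of variation of 15.3% against 8.14% in MYC off and 4.77% in MYC on. The log2 fold change of Trbc2 was 1.26 ± 0.10 in MYC off against MYC on (adjusted p = 2.14e-08) and 0.97 ± 0.099 in MYC intermediate against MYC on (adjusted p = 1.20e-06).

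Trbc1, the other beta constant gene, was near the limit of detection. It had 6, 3 and 9 counts with MYC on, 21, 12 and 8 at the intermediate dose, and 23, 25 and 21 with MYC off. The MYC off libraries were above those of MYC on, and MYC intermediate overlapped both. The log2 fold change was 1.397 ± 0.42 in MYC off against MYC on, with an adjusted p of 0.00907 by edgeR. With the replicate number as a block, which pairs these 2 groups, the adjusted p was 0.0127 and the call was lost. It was also lost in the DESeq2 Wald test (adjusted p = 0.025) and without any 1 library other than MYC intermediate replicates 1 and 3 (adjusted p up to 0.0429). The counts of Trbc1 are uncertain, since its first exon (chr6:41538218-41538592) differs from that of Trbc2 (chr6:41546730-41547104) at 1 of 375 bases. The 41 bases around that position are shown, with the differing base in capitals, to make plain how little separates reads of the 2 genes there.
Trbc1 (chr6:41538457-41538497, plus strand): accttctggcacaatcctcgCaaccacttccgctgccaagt
Trbc2 (chr6:41546969-41547009, plus strand): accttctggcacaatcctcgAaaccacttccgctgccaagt
Of all windows of 50 bases in the longer Trbc1 transcript, 41.1% occur letter for letter in the Trbc2 transcript. How the authors counted reads with several matches is not given in the sources used here. As deposited, Trbc1 held 0.0106% of the 1211858 beta constant counts.

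The variable and joining segments counted in the beta locus were few. Of 35 beta V genes of the annotation, 11 had a count in at least 1 library, and Trbv23 and Trbv31 held 65.5% and 34.4% of the 394786 counts. Whether the FVB/N genome carries all 35 genes was not tested. Trbv23 (chr6:41216073-41216526, plus strand) averaged 507 CPM with MYC on, 1126 at the intermediate dose, and 1239 with MYC off. Its log2 fold change was 1.26 ± 0.19 in MYC off against MYC on and 1.17 ± 0.19 in MYC intermediate against MYC on, both called. Trbv31 (chr6:41557691-41558452), which lies beyond Trbc2 on the minus strand, averaged 281 CPM with MYC on, 574 at the intermediate dose, and 653 with MYC off, with log2 fold changes of 1.18 ± 0.19 and 1.04 ± 0.19 in the same 2 comparisons. The ratio of Trbv23 to Trbv31 counts stayed between 1.58 and 2.07 in the 9 libraries. MYC intermediate replicate 1, the library of that group with the most Trbc2, also had the most beta V counts of its group, with 2373 CPM against 1605 and 1128 CPM in replicates 2 and 3.

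Of 14 beta J segments, only Trbj2-5, Trbj2-6 and Trbj2-7 had counts. They are shown with the sequence around the Phe-Gly motif of J segments (TTTGG or TTCGG, any 4 bases, then GG, searched on the coding strand) in capitals, because these are the joining segments that the line transcribes.
Trbj2-5 (chr6:41543453-41543501, plus strand): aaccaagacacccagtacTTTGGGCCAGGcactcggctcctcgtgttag
Trbj2-6 (chr6:41543598-41543645, plus strand): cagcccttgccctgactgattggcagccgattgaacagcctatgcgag
Trbj2-7 (chr6:41543810-41543856, plus strand): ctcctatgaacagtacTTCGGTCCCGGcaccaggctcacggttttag
The motif was found in Trbj2-5 and Trbj2-7 and not in Trbj2-6, which the annotation lists as a pseudogene. Trbj2-5 held 49.5% (34.9% to 78.3% by library) and Trbj2-7 29.8% of the 6936 beta J counts. Trbj2-5 had 142, 139 and 170 counts with MYC on, 709, 329 and 288 at the intermediate dose, and 632, 471 and 556 with MYC off. It rose in both comparisons, with log2 fold changes of 1.31 ± 0.23 in MYC off against MYC on and 1.162 ± 0.23 in MYC intermediate against MYC on. Trbj2-7 had 125, 142 and 156 counts with MYC on, 142, 146 and 170 at the intermediate dose, and 285, 424 and 480 with MYC off. It rose in MYC off (log2 fold change 0.96 ± 0.23, adjusted p = 0.00189), while its value in MYC intermediate against MYC on was −0.25 ± 0.25 and was not called.

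The alpha locus was counted across many segments. Of 130 alpha V genes, 109 had a count in at least 1 library, and the most counted, Trav14-1 and Trav15-1-dv6-1, held 20.4% and 10.96% of 24307 counts. A single library had counts on 60 to 67 alpha V genes with MYC on, 79 to 89 at the intermediate dose and 85 to 98 with MYC off. Library totals differed as well. Trav14-1 led in all 9 libraries. Of 60 alpha J segments, 52 had a count in at least 1 library, and Traj21 and Traj20 held 12.9% and 9.40% of 2032 counts summed over the libraries. The share of Traj21 ran from 4.93% to 19.6% by library, and it was the most counted in 5 of 9. Summed alpha V levels were 35.5 ± 1.56 CPM with MYC on, 91.9 ± 9.18 at the intermediate dose, and 140.3 ± 1.08 with MYC off. In MYC off against MYC on, 46 of the 50 alpha V genes tested were called higher and none lower. Of all genes tested, 27.5% were called higher and 27.4% lower. The median log2 fold change of these 50 alpha V genes was 2.07. Most alpha V genes averaged under 1 CPM in MYC on. A low segment can pass the count filter through MYC off alone, so these counts and this median lean towards higher values there. For alpha J segments 7 of 8 tested were called higher, with a median of 1.85, which leans the same way. Trav14-1 averaged 27.8 CPM in MYC off and 8.83 CPM in MYC on (log2 fold change 1.63 ± 0.10). Trav15-1-dv6-1 had a log2 fold change of 1.47 ± 0.14, and both were below the alpha V median. Traj21 had 28, 61 and 82 counts in MYC off and 11, 6 and 15 counts in MYC on (log2 fold change 1.91 ± 0.57, adjusted p = 0.00787).

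The delta V segments, which lie within the alpha locus, followed the alpha genes. All 3 that were tested were called higher in MYC off than in MYC on, beside 27.5% of all genes tested. Their median log2 fold change was 2.57, and Trdv2-2 averaged 10.7 CPM in MYC off and 1.66 CPM in MYC on. No counts fell on the gamma V or gamma J segments, and Trdc stayed at 0 in 8 libraries. A count of 0 allows up to 0.0756 to 0.160 CPM in a single library (3 counts), and such limits cover counting error only. Which V and J segments were joined in a transcript cannot be read from counts per gene.

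**Figure D2:**
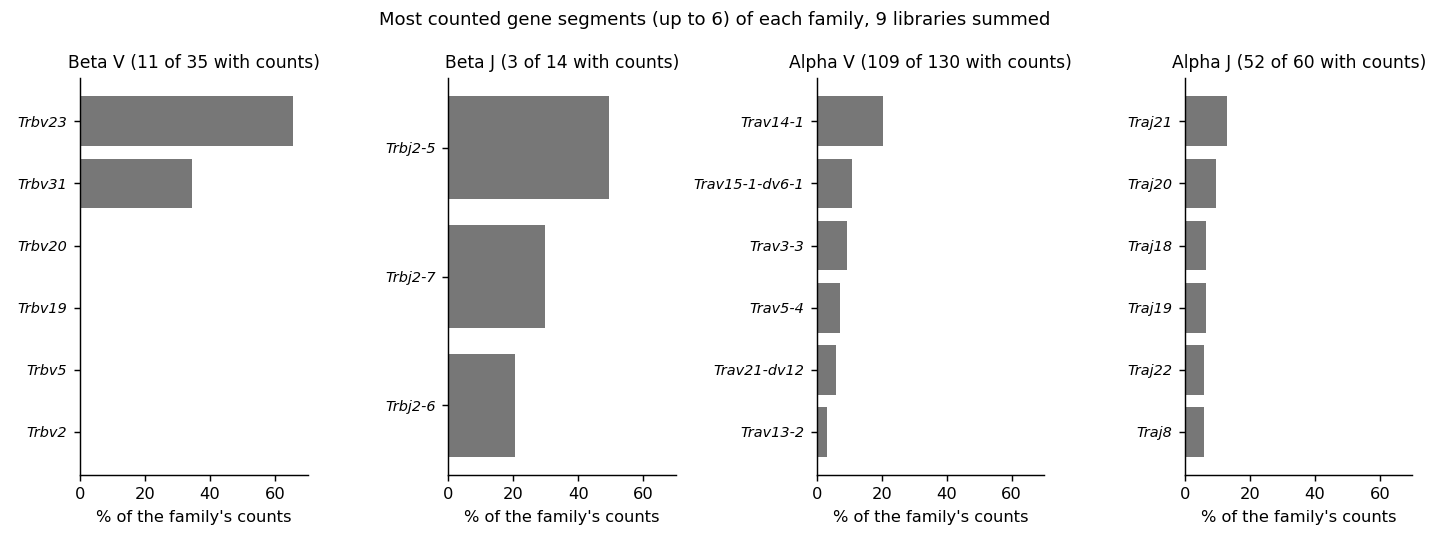
Share of each family's counts held by its most counted segments, up to 6 per family with at least 1 count, summed over 9 libraries (x axis, percent). Trbv23 and Trbv31 hold 99.9% of beta V counts, whereas Trav14-1, the leading alpha V gene, holds 20.4%.

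The CD3 chains had smaller fold changes than Trac and Trbc2, and not all of the same size. Cd247, the zeta chain with the largest number of signalling motifs, had 129.6, 127 and 136 CPM with MYC on, 191, 207 and 202 at the intermediate dose, and 280.3, 271 and 275 with MYC off. It formed 3 separate steps, with a log2 fold change of 1.04 ± 0.056 in MYC off against MYC on (adjusted p = 2.07e-10). Cd3e, the epsilon chain that pairs with both delta and gamma, had 309, 309.9 and 322 CPM with MYC on, 419.9, 416 and 408 at the intermediate dose, and 523, 497 and 491 with MYC off, again without overlap. Its log2 fold change was 0.65 ± 0.054 (adjusted p = 3.58e-08).

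The neighbours Cd3d and Cd3g changed least of the 10. Cd3d, the delta chain, had 173, 164 and 175 CPM with MYC on, 245, 221 and 192 at the intermediate dose, and 264, 236 and 235 with MYC off. Cd3g, the gamma chain, had 212, 195.5 and 195 CPM with MYC on, 270.5, 258 and 238 at the intermediate dose, and 291, 272 and 261 with MYC off. For both, MYC on libraries were lower than all others, and MYC intermediate and MYC off overlapped. The log2 fold change in MYC off against MYC on was 0.49 ± 0.085 for Cd3d (adjusted p = 1.18e-04) and 0.42 ± 0.069 for Cd3g (adjusted p = 6.28e-05). Their centred profiles over the 9 libraries differed by a root mean square of 0.06 on the log2 scale, and those of Cd3d and Cd3e by 0.11. Such closeness was not particular to neighbours. Cd3e and Cd8b1, on different chromosomes, also differed by 0.06, and Cd247 and Cd4 by 0.036.

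Cd3e and Cd247 share genomic ground with other genes, and the library kit did not mark the strand. Gm48719, antisense to Cd3e, was listed with 49977 counts over the 9 libraries. It had 243, 229 and 237 CPM in MYC off and 147, 144 and 156 CPM in MYC on, with no overlap. Where their exons overlap, reads from Cd3e and from its antisense partner cannot be told apart in such libraries. The extent of exon overlap was not examined. Cd247 overlaps Pou2f1 on the other strand, which had 9621 counts.

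The coreceptors were both present and rose together. Cd4 had 677, 678 and 707 CPM with MYC on, 1081, 1107 and 1051 at the intermediate dose, and 1481, 1458 and 1484 with MYC off. Cd8a, the alpha chain that binds MHC class I and LCK, had 607, 603 and 610.5 CPM with MYC on, 993, 983 and 1025 at the intermediate dose, and 1288, 1217 and 1205 with MYC off. Both genes were separated between all 3 groups. The log2 fold change in MYC off against MYC on was 1.07 ± 0.051 for Cd4 (adjusted p = 5.35e-11) and 0.99 ± 0.053 for Cd8a (adjusted p = 2.14e-10). Cd8b1, the beta chain of the CD8 dimer, had 1231, 1201 and 1196 CPM with MYC on, 1784, 1754 and 1714 at the intermediate dose, and 2202, 2057 and 1997 with MYC off. It too was highest in every MYC off library, with a log2 fold change of 0.75 ± 0.058 (adjusted p = 1.37e-08).

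**Figure D3:**
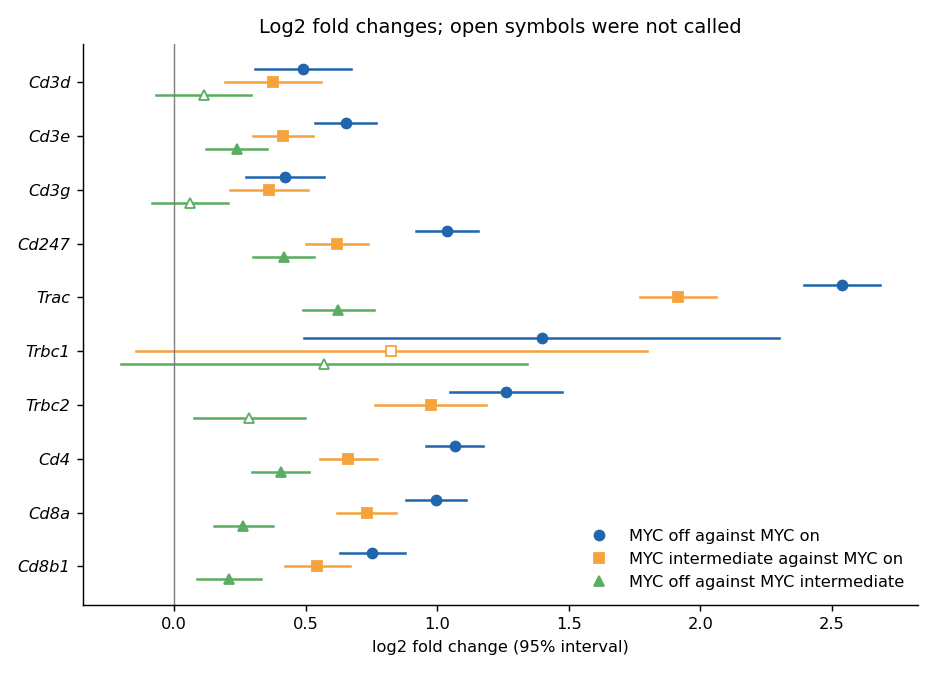
Log2 fold change (x axis) with 95% interval for the 10 genes in MYC off against MYC on, MYC intermediate against MYC on, and MYC off against MYC intermediate. Filled symbols were called at an adjusted p under 0.01. Trac stands at 2.54 in MYC off against MYC on, and Cd3g has the smallest value of that comparison, 0.42.

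At the intermediate dose the order of the changes was much the same. Trac had a log2 fold change of 1.91 against MYC on, that is 3.77-fold, followed by Trbc2 with 0.97. Among the coreceptors Cd8a had 0.73 ± 0.053 (adjusted p = 3.57e-08), Cd4 0.66 ± 0.051 (adjusted p = 6.06e-08) and Cd8b1 0.54 ± 0.057 (adjusted p = 1.69e-06). Of the CD3 chains Cd247 had 0.62 ± 0.055 (adjusted p = 3.06e-07), Cd3e 0.41 ± 0.054 (adjusted p = 1.44e-05), Cd3d 0.38 ± 0.086 (adjusted p = 0.00199) and Cd3g 0.36 ± 0.069 (adjusted p = 5.04e-04). Cd3d missed the threshold without MYC on replicate 2 (adjusted p = 0.0135). Trbc1 was not called (0.83, 95% interval −0.14 to 1.80).

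The step between the 2 doxycycline doses was smaller. In MYC off against MYC intermediate, 6 of the 10 genes were called higher (Cd3e, Cd247, Trac, Cd4, Cd8a and Cd8b1) and none lower, whereas 9.95% of all genes tested were called higher and 14.7% lower. With upper quartile scaling 2026 genes were called higher and 1688 lower in this comparison, against 1403 and 2073 with TMM scaling. Trac had a log2 fold change of 0.62, Cd247 of 0.42 ± 0.055 and Cd4 of 0.40 ± 0.050. Cd8a had 0.26 ± 0.053, Cd3e 0.24 ± 0.054 and Cd8b1 0.21 ± 0.057. The call of Cd8b1 was marginal (adjusted p = 0.00979) and was lost in 10 of 18 alternative settings. Cd3e missed the threshold without MYC intermediate replicate 3 (adjusted p = 0.0121) or MYC off replicate 1 (adjusted p = 0.0184). Trbc2 was not called (0.29 ± 0.098, adjusted p = 0.0328), nor were Cd3d (0.11, 95% interval −0.07 to 0.29) and Cd3g (0.06, 95% interval −0.09 to 0.21).

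At the intermediate dose hMYC was at 32.4% of its MYC on CPM. Most of the change of the 10 genes on the log2 scale had been made there. The log2 change in MYC intermediate was 85.7% of the full change for Cd3g, 77.3% for Trbc2, 76.8% for Cd3d, 75.4% for Trac, 73.6% for Cd8a and 72.3% for Cd8b1. It was 63.6% for Cd3e, 62.1% for Cd4, 59.8% for Cd247 and 59.1% for Trbc1. These shares depend on the scale and are smaller on CPM. Cd4 averaged 688 CPM with MYC on, 1080 at the intermediate dose and 1474 with MYC off. In the same order Cd247 averaged 131, 200 and 275 CPM, and Trac 67.1, 251 and 399 CPM. Over the 3115 genes called higher in MYC off with a log2 fold change above 0.4, the median was 63.8% and the quartiles were 51.9% and 73.3%. A direct test of MYC intermediate against the midpoint of the end groups on the log2 scale called 2 of the 10 genes, both above it, beside 1.7% of all genes tested. Trac lay 0.65 ± 0.054 above the midpoint (adjusted p = 4.39e-06) and Cd8a 0.23 ± 0.045 (adjusted p = 0.00765). Cd8a lost this call with DESeq2 size factors (adjusted p = 0.0132), with upper quartile scaling (adjusted p = 0.0133) and without any 1 library other than MYC off replicate 1 (adjusted p up to 0.0337). Trbc2 lay 0.34 ± 0.084 above the midpoint and was not called (adjusted p = 0.0279).

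**Figure D4:**
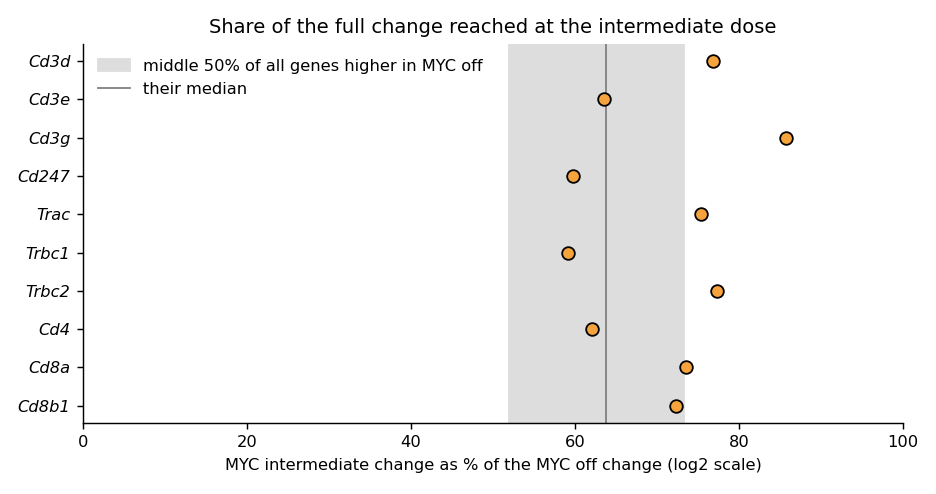
Change in MYC intermediate as a percentage of the change in MYC off, both against MYC on and on the log2 scale (x axis), for each of the 10 genes. The band spans 51.9% to 73.3%, the quartiles of the 3115 genes called higher in MYC off with a log2 fold change above 0.4, and the line is their median of 63.8%. Cd3g (85.7%), Trbc2, Cd3d, Trac and Cd8a (73.6%) lie to the right of the band.

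Because each chain has a partner, ratios of counts within a library were compared, which do not depend on depth. The ratio of Trac to the summed beta constant genes was 0.0651 ± 0.00311 in MYC off, against 0.0269 ± 0.002195 in MYC on. It was 0.0521 ± 0.00664 in MYC intermediate. The ratio was 2.43-fold higher in MYC off than in MYC on, with no overlap of libraries. The ratio of Cd247 to Cd3e was 0.547 ± 0.012 in MYC off and 0.418 ± 0.007 in MYC on, 1.31-fold higher in MYC off. Cd3d and Cd3g were lower relative to Cd3e, by 0.16 and 0.23 on the log2 scale. The ratio of Cd8b1 to Cd8a was 1.69 ± 0.026 in MYC off and 1.99 ± 0.036 in MYC on, 0.24 lower on the log2 scale in MYC off.

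Each of these MYC off and MYC on pairs was free of overlap, and each gave p = 0.1 in an exact two-sided permutation test, the smallest that 3 libraries against 3 can give (adjusted p = 0.175 over 21 tests). The ratio of Cd4 to Cd8a was 1.19 ± 0.041 in MYC off and 1.13 ± 0.022 in MYC on and overlapped between them (exact permutation p = 0.2, adjusted p = 0.323). Within same-numbered pairs it was higher in MYC off in 3 of 3, by 0.04 to 0.09 on the log2 scale. An exact sign-flip test over the pairs, added after the data were seen, gave p = 0.25, the smallest that 3 pairs allow. The log2 ratio of Trbc1 to Trbc2 overlapped between the groups in all 3 comparisons.

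**Figure D5:**
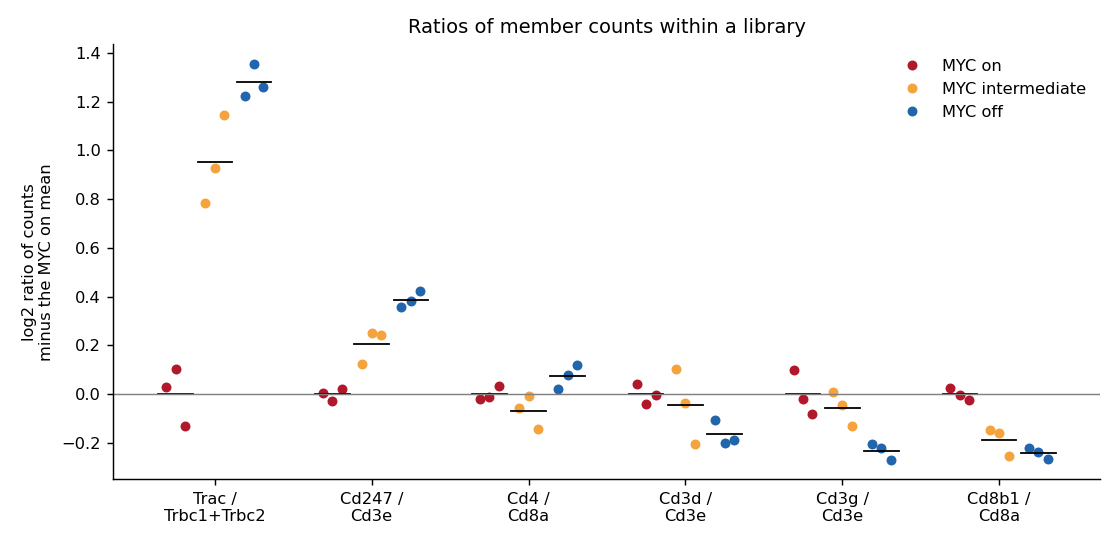
Log2 ratio of counts within each library, minus the MYC on mean (y axis), for 6 pairs of genes, with points for the 3 libraries of MYC on, MYC intermediate and MYC off and lines at the means. Trac over the beta constant genes lies 1.28 higher in MYC off on average, and Cd8b1 over Cd8a 0.24 lower.

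Levels of different genes were set side by side only on TPM, which divide by gene length. In MYC on the order was Trbc2 (12171 ± 508 TPM), Cd8b1 (2745 ± 36.3), Cd4 (574 ± 13.6), Cd8a (562 ± 2.71), Cd3d (316 ± 8.89), Cd3e (259 ± 5.68), Trac (242 ± 13.7), Cd3g (207 ± 8.96), Cd247 (82.8 ± 2.80) and Trbc1 (1.14 ± 0.360). In MYC off it was Trbc2 (29654 ± 1987 TPM), Cd8b1 (4705 ± 168), Trac (1427 ± 61.2), Cd4 (1224 ± 20.7), Cd8a (1138 ± 24.8), Cd3d (451 ± 24.6), Cd3e (413 ± 7.97), Cd3g (281 ± 11.2), Cd247 (173 ± 2.29) and Trbc1 (3.24 ± 0.831). Trac moved up past Cd3e, Cd3d, Cd8a and Cd4 in this order between MYC on and MYC off. Cd4 and Cd8a overlapped in MYC on, and Cd8a, Trac and Cd4 overlapped as neighbours in MYC intermediate. No other neighbours in the order overlapped in any group. Beta constant transcripts outnumbered alpha constant transcripts on this scale in every library.

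The genes with the profiles closest to these, by the root mean square difference of centred log2 CPM over 9 libraries among 8903 genes, came partly from the group itself. Cd4 and Cd247 differed by 0.036, and the profile closest to Cd4 was that of Colq, a collagen-like anchor of acetylcholinesterase (0.027). For Cd8a the closest were Carhsp1 (0.030), Peli1 (0.032) and Dnajc3 (0.035). For Trac they were H1f0, a linker histone (0.065), Ppp1r18 (0.106) and Ifngr1, a chain of the interferon gamma receptor (0.110). For Trbc2 they were Cyba, a subunit of the phagocyte oxidase (0.043), H2afv (0.049) and Stk17b (0.057). Likeness here is over 3 groups of libraries, so that any gene with similar fold changes scores as close.

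Other genes of the pathway mostly moved the same way, and these lists were chosen with earlier results of these data known. Of 27 genes of proximal receptor signalling, 25 were called higher and 1 (Csk, which restrains LCK) lower in MYC off against MYC on. Their median log2 fold change was 0.99, and 27.5% of all genes tested were called higher and 27.4% lower. In MYC intermediate against MYC on, 23 were called higher and none lower, against 17.4% and 17.2% of all genes tested. Tespa1, an adaptor of thymocyte receptor signalling, averaged 157 ± 8.47 CPM in MYC off and 10.53 ± 0.620 CPM in MYC on. Sit1, an inhibitory transmembrane adaptor, had a log2 fold change of 2.55, and Txk, a TEC family kinase, of 2.38. Of 15 costimulatory and accessory receptors, 12 were called higher and 1 lower (Ctla4), with a median of 1.90. Cd5, which dampens receptor signals, averaged 107 ± 3.42 CPM in MYC off and 5.34 ± 0.750 CPM in MYC on, and Cd6, Cd2 and Icos had log2 fold changes of 4.01, 3.09 and 2.74.

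Genes that assemble the receptor or remove it were mixed. Of 11 such genes 9 were tested, 6 were called higher and 1 lower, beside 27.5% and 27.4% of all genes tested. Sla, an adaptor that promotes receptor degradation, averaged 1461 ± 28.2 CPM in MYC off and 671 ± 9.29 CPM in MYC on. Trat1, which stabilizes the receptor, had a log2 fold change of 1.20 and Cbl, a ubiquitin ligase, of 0.69, whereas Ubash3a, an inhibitor of receptor signals, fell by 1.15 on the log2 scale. Ptcra, the surrogate alpha chain of the pre-receptor, had 16, 6 and 20 counts in MYC off and 7, 6 and 7 counts in MYC on and was not called.

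Of 26 regulators of the receptor and coreceptor loci, 25 were tested, 19 were called higher and 1 lower (Tcf4). The shares of all genes tested were again 27.5% higher and 27.4% lower in MYC off against MYC on. Tox, needed for thymocytes to become CD4 cells, averaged 50.3 ± 2.35 CPM in MYC off and 3.85 ± 0.356 CPM in MYC on. Bcl11b and Gata3 had log2 fold changes of 1.30 and 1.26. Runx3 and Zbtb7b, the factors that set the CD8 and CD4 fates, were not called. The exceptions in these lists (Csk, Ctla4, Tcf4, Runx3, Zbtb7b and Il7r) and Ptcra were named after their values were seen, and so was Lck. Of 16 thymocyte stage markers 12 were tested, 9 were called higher and 1 (Il7r) lower, beside the same shares of all genes. Cd69, an early marker of receptor engagement, had a log2 fold change of 2.99, Ccr7 of 2.74 and Rag2 of 1.48.

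Of the 13 T cell markers, Cd5, Cd6 and Cd2 had the largest log2 fold changes. Several of these 13 genes also stand in the lists above. Summed over the 13, the level was 11731 to 11940 CPM in MYC off libraries and 6679 to 6941 CPM in MYC on libraries. Markers of other cells were low by comparison. The B cell list summed to 2.56 to 3.38 CPM in MYC off and 1.33 to 1.77 CPM in MYC on, with 1 of 2 tested genes called higher and Cd79b, Ms4a1 and Pax5 at 0 counts in every library. The NK and innate lymphoid list summed to 5.39 to 6.62 CPM in MYC off and 1.57 to 1.98 CPM in MYC on. Its 1 tested gene, Tbx21, was called higher (log2 fold change 1.90), and Ncr1, Klrk1, Klrd1 and Klra8 were at 0.

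The myeloid and dendritic list summed to 41.4 to 44.3 CPM in MYC off and 27.4 to 31.5 CPM in MYC on. Of 4 tested genes, Itgam was called higher (2.46) and Csf1r lower (−0.38), and Lyz2, Adgre1, Cd14, S100a8, S100a9 and Siglech were at 0. The stromal and endothelial list summed to 209 to 228 CPM in MYC off and 89.4 to 94.3 CPM in MYC on, nearly all of it Pecam1 (1.27), with Col3a1, Dcn, Pdgfra, Cdh5 and Kdr at 0. The erythroid and platelet list had no tested gene and summed to at most 0.202 CPM in any library. Tbx21, Itgam, Csf1r and Pecam1 thus had counts in all groups while other markers of the same lists were at 0. The part of these lists in the change of the 10 genes was not tested.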

How the data were processed

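RNA from 9 libraries of 1 mouse T-ALL line was sequenced, 3 per doxycycline dose. The authors trimmed adapters with cutadapt 1.16, aligned reads to mm10 with STAR 2.5.4b and counted reads per gene with featureCounts. The annotation release, the strand setting and the handling of reads with several matches are not given in the sources used here. Each deposited table held raw counts per gene, and the authors also deposited a score of counts per kilobase, FPKM, TPM and the rank of each gene as a fraction. The deposited TPM were recomputed from the counts and lengths and matched, and the FPKM, score and fraction columns were not used further.

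Counts were fitted with edgeR 4.0.16 in R 4.3.3 in 1 model of all 9 libraries, without a replicate term, using TMM scaling and the default count filter. This left 14098 genes, including all 10 of the receptor and coreceptor genes. Two-sided quasi-likelihood F tests were adjusted by Benjamini-Hochberg over all genes tested, and an adjusted p under 0.01 was called. The SE was the log2 fold change divided by the square root of F. CPM were counts over the library total, and totals of 18705516 to 39678799 counts set their precision. The scripts were tested on simulated data. Ratios were compared by exact two-sided permutation tests.

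Symbols came from GENCODE M21 (GRCm38) for 53274 of 53380 identifiers, with gamma constant and older names matched through RefSeq synonyms. Promoters are from RefSeq (GRCm38.p6), and J segments and exons from GENCODE M21. The genes and lists were chosen with earlier results of these data known. Named were all 10 genes, hMYC and Myc, up to 4 called genes per list with the largest absolute log2 fold change and at least 5 CPM in 1 group, the 2 most counted segments per V and J family, and the 3 genes closest in profile to each member, of which some are given. Exceptions are named as such. Some genes that this rule names are not reported here.

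Libraries with the same number in MYC off and MYC on deviated together from their group means (r = 0.39, 0.27 and 0.23 over 9946 genes), so a fit with the replicate number as a block was read beside that comparison. No 2 libraries of a group agreed within sampling noise. Because the labels do not name separate cultures, p-values measure the spread between these libraries, which may be technical. Alternatives were other scalings, DESeq2 1.42.0, other filters, thinned counts, the replicate block, the 6 libraries compared alone, and leaving out each library.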

Additional observations from a re-analysis of the deposited data

How the results depend on the processing

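All fold changes of the 10 genes that were called kept their direction under all alternatives in which they were tested. The count called in MYC off against MYC on was 9 or 10 of 10 tested, Trbc1 being the gene lost. With a filter of 1 CPM in 3 libraries Trbc1 was not tested and 9 of 9 were called. Its adjusted p in edgeR fits and in the DESeq2 Wald test was between 0.00654 and 0.0429 over 17 alternatives and it was called in 8 of them. The counts of genes off the midpoint, 2 in the chosen fit, were 1 with DESeq2 size factors and 1 with upper quartile scaling, and between 1 and 3 when single libraries were left out. Cd8a accounts for the loss in each case, and Trbc2 was called there in 5 of 17 alternatives. Without MYC on replicate 2, Cd3d in MYC intermediate against MYC on had an adjusted p of 0.0135 by edgeR. Trbc2 in MYC off against MYC intermediate was called in 5 of 18 alternatives, including without MYC intermediate replicate 1 (log2 fold change 0.40).

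With the replicate number as a block, 9 genes were called in MYC off against MYC on, 9 in MYC intermediate against MYC on, 7 in MYC off against MYC intermediate and 3 off the midpoint. Only MYC off and MYC on were treated as paired, from the correlation of their deviations alone, since the labels name no pairing. Libraries of different numbers in these 2 groups reached at most r = 0.15. Elsewhere such libraries reached 0.39 (MYC intermediate replicate 2 with MYC on replicate 3). Same-numbered libraries of MYC off and MYC intermediate had 0.38, 0.03 and 0.08, and those of MYC intermediate and MYC on included values below 0.

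With pseudogenes left out, the leading shares were 21.4% for Trav14-1, 14.2% for Traj21 and 62.4% for Trbj2-5. The alternatives for the gene lists were added after the data were seen. The B cell list had 0 genes called with a filter of 1 CPM in 3 libraries, as its called gene was then not tested. Scalings moved the median of all genes by at most 0.07 on the log2 scale. Low counts limit Trbc1, Traj21 and Traj20, which had fewer than 100 counts in each library.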
